A study of Homo sapiens with 2 samples.

Results

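The 41 genes described here carry the interferon response and class I antigen presentation. They were taken by name from a list chosen with earlier results of these data known. All 41 were found among the 25702 genes counted. They comprise 4 interferon receptor chains, 6 STAT and IRF transcription factors, 3 genes of RNA sensing, 20 antiviral effectors and 8 genes of class I presentation. RNA was measured by sequencing in K562, an erythroid leukemia line that carries the BCR-ABL1 fusion, grown in RPMI medium with serum. One culture was kept for 48 h in 1 µM cabozantinib (XL184), a kinase inhibitor whose targets include MET, AXL and the VEGF receptors. The other was kept for 48 h in its solvent, DMSO. With 1 library from 1 culture in each group, differences have no replicate check, and the intervals given are exact 95% intervals of counting error alone. In bulk RNA, fewer cells that express a gene and less RNA per cell cannot be told apart.

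Interferons bind paired receptor chains at the cell surface, and the kinases attached to those chains phosphorylate STAT proteins. STAT2 joins IRF9 in the complex that type I interferon activates. This complex binds the interferon-stimulated response element (ISRE) in front of antiviral genes, while interferon gamma acts through the gamma-activated site (GAS). Class I presentation uses a heavy chain such as HLA-E, the light chain B2M and the TAP transporter, which brings peptides to the endoplasmic reticulum. K562 is known for very little class I protein on its surface and is a standard target of natural killer cells for that reason.

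The cabozantinib library held 25505289 counts and the DMSO library 25025243. At this depth 12536 genes reached 1 CPM (counts scaled to 1000000 per library) in at least 1 library and were called measured. A gene was called at a difference of 1.5-fold or more with an interval that excluded no change, which held for 8.15% of measured genes in the higher direction and 12.3% in the lower. These shares are the background for the counts below. The identity of the line was visible in both libraries, with all 8 erythroid markers measured, 7 of them higher and 0 lower. Of 6 markers of T and NK cells 1 was measured, CD3D at 2.38 CPM with cabozantinib and 9.59 CPM in DMSO. Of 7 markers of monocytes, macrophages and plasmacytoid dendritic cells 1 was measured, LYZ at 8.80 CPM with cabozantinib and 16.7 CPM in DMSO. The summed level of the monocyte, macrophage and dendritic list was 9.12 CPM with cabozantinib and 17.2 CPM in DMSO, with CD163 and LILRA4 at 0 counts in both libraries. That of the T and NK list was 2.62 CPM with cabozantinib and 9.93 CPM in DMSO, with CD8A and GNLY at 0. Among 6 fibroblast and epithelial markers, whose summed level was 394 CPM with cabozantinib and 535 CPM in DMSO, 5 were measured and none was at 0 in both libraries. COL1A2 and KRT8 were lower and the other 3 measured were not called, with log2 ratios of 0.29 (0.20 to 0.38) for EPCAM, -0.21 (-0.72 to 0.29) for COL1A1 and -0.45 (-0.51 to -0.39) for KRT18. The part of these markers in the results below was not tested.

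With cabozantinib, 2 antiviral genes, IFIT3 and OAS3, were higher by 2.72-fold and 2.05-fold. Another 2 antiviral genes, IFITM2 and IFI35, were lower, as were HLA-E and both TAP subunits of class I presentation. The receptors and the STAT and IRF factors stayed within 1.5-fold. Of the 41 members 28 were measured, and 2 of these (7.14%) were higher and 5 (17.9%) lower, against 8.15% and 12.3% of all measured genes. The median log2 ratio of the 28 was -0.21, and that of all measured genes was 0.01. As a share of the measured genes, 75% of members and 78.5% of all genes lay within 1.5-fold.

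**Figure D1:**
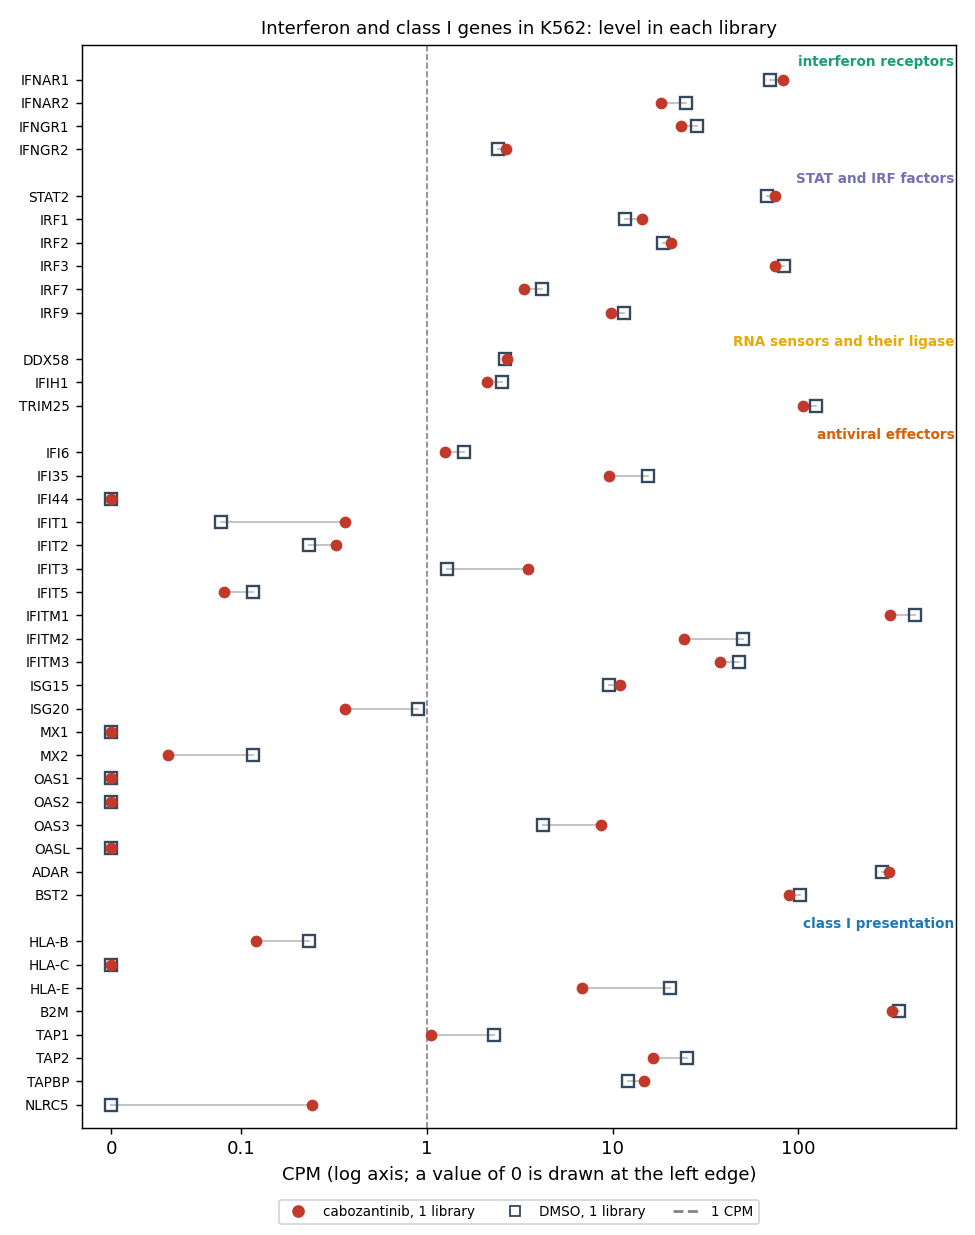
Level of each of the 41 members in the cabozantinib library (filled circles) and the DMSO library (open squares), in CPM on a log axis, with 0 drawn at the left edge and genes grouped by role. IFITM1, B2M and ADAR lie at 281 CPM or more in both libraries, while 13 members lie left of the 1 CPM line in both.

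The 4 receptor chains were all measured and 0 of them were called. IFNAR1 and IFNAR2 form the type I interferon receptor. IFNAR1 had 82.6 CPM with cabozantinib and 70.7 CPM in DMSO, a log2 ratio of 0.22 (0.13 to 0.32). IFNAR2 had 18.3 CPM with cabozantinib and 24.7 CPM in DMSO, or -0.43 in log2 (-0.61 to -0.26), which is under 1.5-fold. The subunits of this receptor thus differed in opposite directions, both by more than counting error. IFNGR1, the ligand-binding chain of the interferon gamma receptor, had 23.3 CPM with cabozantinib and 28.6 CPM in DMSO. Its log2 ratio was -0.30 (-0.46 to -0.14), beyond counting error but under 1.5-fold. Its partner IFNGR2 had 66 counts with cabozantinib and 62 in DMSO, with an interval from -0.38 to 0.67 in log2. Summed over the list, receptor counts came to 127 CPM with cabozantinib and 126 CPM in DMSO. IFNAR2 shares 650 exon bases with IL10RB-DT, a gene on the opposite strand that had 0 counts in both libraries.

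All 6 STAT and IRF factors were measured, and 0 were called. STAT2 had 1848 counts with cabozantinib and 1736 in DMSO, a log2 ratio of 0.15 (0.05 to 0.24). IRF9, its DNA-binding partner, had 244 counts with cabozantinib and 297 in DMSO, and its log2 ratio of -0.23 (-0.48 to 0.02) was within counting error. IRF1, an activator that interferon gamma induces, had 14.4 CPM with cabozantinib and 11.6 CPM in DMSO, the highest log2 ratio of the list at 0.31 (0.09 to 0.54). IRF2, which competes with IRF1 for the same sites, was within counting error at 511 counts with cabozantinib and 479 in DMSO. IRF3 is activated by phosphorylation rather than by induction. It had 74.7 CPM with cabozantinib and 83.2 CPM in DMSO, a log2 ratio of -0.16 (-0.25 to -0.06). It shares 245 exon bases with BCL2L12 on the opposite strand, which had 1815 counts with cabozantinib and 2403 in DMSO, so part of its value is uncertain. IRF7, the factor that amplifies type I interferon production, had 83 counts with cabozantinib and 108 in DMSO, a log2 ratio of -0.32 (-0.75 to 0.10). Over receptors and factors together the median log2 ratio was -0.00, with 5 members above and 5 below no change, so this median has no firm sign.

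The cytoplasmic sensors of foreign RNA had few counts. DDX58, which encodes RIG-I, had 67 counts with cabozantinib and 68 in DMSO. IFIH1, which encodes MDA5, had 52 counts with cabozantinib and 65 in DMSO. Both differences lay within counting error, and the sign of the DDX58 log2 ratio, 0.04, turned to -0.05 under scaling by total counts. TRIM25, the ubiquitin ligase that acts on RIG-I, had 105 CPM with cabozantinib and 124 CPM in DMSO, a log2 ratio of -0.23 (-0.31 to -0.16), beyond counting error but under 1.5-fold.

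**Figure D2:**
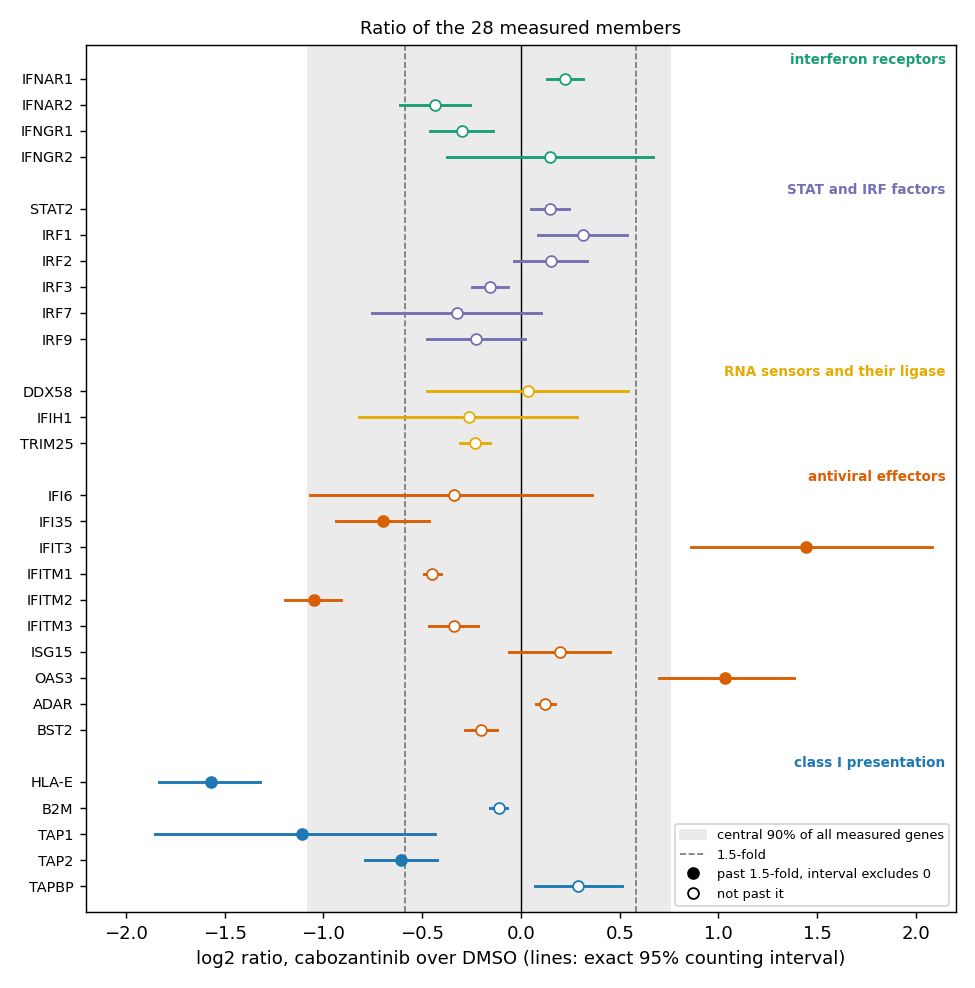
Log2 ratio of cabozantinib over DMSO for the 28 measured members (points) with exact 95% counting intervals (lines), grouped by role, with 1.5-fold as dashed lines and the central 90% of all measured genes as the grey band. Filled points are the 7 called members, of which IFIT3 and OAS3 lie to the right of the band and HLA-E and TAP1 to the left of it.

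Of the 20 antiviral effectors 10 were measured. Of these 2 (20%) were higher and 2 (20%) lower, against 8.15% and 12.3% of all measured genes. IFIT3 (Entrez 3437, hg19 chromosome 10, 91087602 to 91100725), an antiviral protein that stabilises IFIT1 on viral RNA, had 87 counts with cabozantinib and 33 in DMSO. That is 3.51 CPM with cabozantinib and 1.28 CPM in DMSO, 2.72-fold higher (1.82 to 4.23). Its neighbours in the same cluster were barely detected. IFIT1 had 9 counts with cabozantinib and 2 in DMSO, a ratio of 3.95 (0.97 to 44.5), IFIT2 had 8 with cabozantinib and 6 in DMSO, and IFIT5 had 2 with cabozantinib and 3 in DMSO. The sum of these 3 neighbours, 19 counts with cabozantinib and 11 in DMSO, gave a log2 ratio of 0.82 whose interval (-0.30 to 2.06) held no change. IFIT3 held 87 of the 106 counts of the family with cabozantinib and 33 of 44 in DMSO.

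OAS3 (Entrez 4940, chromosome 12, 113376249 to 113411054) makes 2-5A, the messenger that activates RNase L. It had 215 counts with cabozantinib and 109 in DMSO, or 8.68 CPM with cabozantinib and 4.23 CPM in DMSO, 2.05-fold higher (1.62 to 2.61). OAS1, OAS2 and the OAS-like gene OASL were undetected in both libraries. A count of 0 leaves room for a level of up to 3 counts, or 0.121 CPM with cabozantinib and 0.116 CPM in DMSO. OAS1 and OAS2 lie on either side of OAS3 on the chromosome, so within this cluster a detected gene sat between genes with no counts. IFI44 and MX1, the interferon-induced GTPase used as a marker of type I response, also had 0 counts in both. Its relative MX2 had 1 count with cabozantinib and 3 in DMSO.

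Promoters are shown for IFIT3, OAS3 and TAP1, the called members of largest difference with an entry in the RefSeq table, and for IFIT1, the uncalled neighbour of IFIT3. The sequences come from RefSeq on GRCh38.p14, the 250 bases before the start site, read 5′ to 3′ on the gene's strand. Capitals mark the core of the ISRE, which is GAAA, then 2 bases of any kind, then GAAA. It was searched on both strands, so TTTC, 2 bases and TTTC is the same core on the other strand. IFIT3 is at chr10:89327747-89327996 (+), the first of 2 start sites in the table, OAS3 at chr12:112938224-112938473 (+), TAP1 at chr6:32853705-32853954 (-), the first of 2 start sites, and IFIT1 at chr10:89392373-89392622 (+).
IFIT3: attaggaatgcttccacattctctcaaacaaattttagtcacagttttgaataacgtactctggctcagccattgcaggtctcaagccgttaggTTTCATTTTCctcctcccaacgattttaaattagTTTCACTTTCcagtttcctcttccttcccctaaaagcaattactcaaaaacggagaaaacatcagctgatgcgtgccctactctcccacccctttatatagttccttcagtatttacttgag
OAS3: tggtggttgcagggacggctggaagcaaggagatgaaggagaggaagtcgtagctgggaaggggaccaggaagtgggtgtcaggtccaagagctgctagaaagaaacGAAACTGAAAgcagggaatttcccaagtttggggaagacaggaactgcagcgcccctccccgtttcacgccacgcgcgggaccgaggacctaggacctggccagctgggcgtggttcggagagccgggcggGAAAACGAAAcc
TAP1: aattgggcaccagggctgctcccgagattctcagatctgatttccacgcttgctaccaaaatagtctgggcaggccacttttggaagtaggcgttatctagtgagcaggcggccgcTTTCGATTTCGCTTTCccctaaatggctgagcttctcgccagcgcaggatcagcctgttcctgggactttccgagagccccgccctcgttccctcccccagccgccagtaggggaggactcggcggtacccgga
IFIT1: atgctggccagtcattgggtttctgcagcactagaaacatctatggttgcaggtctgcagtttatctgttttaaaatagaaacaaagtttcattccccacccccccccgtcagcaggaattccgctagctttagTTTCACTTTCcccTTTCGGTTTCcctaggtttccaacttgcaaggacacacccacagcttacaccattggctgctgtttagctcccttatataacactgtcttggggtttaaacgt

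Each of the 4 windows held 2 matches to the core. They began 156 and 122 bases before the start in IFIT3, 143 and 12 in OAS3, 134 and 128 in TAP1, where the matches overlap, and 116 and 103 in IFIT1. The other listed start of IFIT3 also held 2, and that of TAP1 held 0. The core was thus present before genes that were higher, lower and nearly undetected. Of the 41 members 30 had an entry, and 17 of these (56.7%) held the core before at least 1 start site, against 3.71% of the 27305 genes in the table. By list, these were 12 of 15 antiviral effectors, 4 of 6 class I genes, 1 of 3 genes of RNA sensing, and 0 of 3 receptors and 0 of 3 factors. By call, 2 of 2 higher members with an entry held it, 2 of 3 lower members, 8 of 17 measured members that were not called and 5 of 8 that were not measured. B2M and TAPBP, within 1.5-fold, held 2 matches each, and IFI35 held none. The GAS core TTCNNNGAA, which reads the same on both strands, was found in 8 of the 30 members (26.7%), IRF1 among them, and in 8.09% of all genes. STAT2, IFNAR1 and ADAR held neither core in these windows, at any of their listed start sites. HLA-E, IFITM2, IFIT2, IFNAR2, IRF2, IRF3, IRF7, MX2, NLRC5, OAS2 and OASL had no entry.

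The IFITM proteins, which block viral entry at cell membranes, lie together on chromosome 11 and include the member with the highest level per kilobase. IFITM1 had 7694 counts with cabozantinib and 10914 in DMSO, or 311 CPM with cabozantinib and 424 CPM in DMSO, a log2 ratio of -0.45 (-0.49 to -0.41). IFITM2 (Entrez 10581, chromosome 11, 308107 to 309410) had 599 counts with cabozantinib and 1290 in DMSO, 2.07-fold lower (1.88 to 2.28). IFITM3 had 938 counts with cabozantinib and 1236 in DMSO, a log2 ratio of -0.34 (-0.47 to -0.22). All 3 genes were therefore lower by more than counting error, and IFITM2 passed 1.5-fold. Within their summed counts IFITM2 took 6.49% with cabozantinib (exact interval 5.99% to 7.01%) and 9.60% in DMSO (9.11% to 10.1%). The share of IFITM1 was 83.3% with cabozantinib and 81.2% in DMSO. The genes are near-identical in parts and the split of shared reads between them is uncertain. Their sum had a log2 ratio of -0.49 (-0.52 to -0.45), or 1.40-fold lower. It is free of that split only if each shared read was counted once, which is not known.

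IFI35 (Entrez 3430, chromosome 17, 41158769 to 41166476), an interferon-induced leucine zipper protein, had 237 counts with cabozantinib and 400 in DMSO, 1.62-fold lower (1.38 to 1.91). The other measured effectors lay within 1.5-fold. ISG15, the ubiquitin-like modifier, had 272 counts with cabozantinib and 247 in DMSO, within counting error. ADAR, which edits double-stranded RNA and is expressed with or without interferon, had 306 CPM with cabozantinib and 281 CPM in DMSO, a log2 ratio of 0.12 (0.08 to 0.17). BST2, the tetherin that holds budding virus at the cell surface, had 88.6 CPM with cabozantinib and 102 CPM in DMSO, a log2 ratio of -0.20 (-0.28 to -0.12). IFI6 stood at 31 counts with cabozantinib and 41 in DMSO. Below 1 CPM, the exonuclease gene ISG20 had 9 counts with cabozantinib and 23 in DMSO, 2.38-fold lower with a wide interval (1.10 to 6.03). Over effectors and sensors together, 13 measured members had a median log2 ratio of -0.23, with 5 above and 8 below no change.

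In class I presentation 3 of 5 measured members (60%) were lower and 0 were higher, against 12.3% and 8.15% of all measured genes. The median log2 ratio of the 5 class I members was -0.61. HLA-E (Entrez 3133, chromosome 6, 30457183 to 30461982), the non-classical heavy chain that natural killer cells read through CD94/NKG2A, had the largest difference of the 28 measured members. It had 169 counts with cabozantinib and 523 in DMSO, or 6.82 CPM with cabozantinib and 20.3 CPM in DMSO, 2.97-fold lower (2.50 to 3.56). The classical heavy chains were at or near 0 in both libraries. HLA-B had 3 counts with cabozantinib and 6 in DMSO, a ratio of 0.56 (0.08 to 2.44), and HLA-C had 0 in both. Counts of HLA genes depend on how the alleles of the line align to the reference, and reads shared between heavy chains are uncertain. Their sum, 172 counts with cabozantinib and 529 in DMSO, was 2.95-fold lower.

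TAP1 and TAP2 form the peptide transporter. TAP2 (Entrez 6891, chromosome 6, 32789610 to 32806547) had 409 counts with cabozantinib and 648 in DMSO, 1.52-fold lower (1.34 to 1.73), the called member closest to the 1.5-fold size. TAP1 (Entrez 6890, chromosome 6, 32812986 to 32821748) had 26 counts with cabozantinib and 59 in DMSO, 2.16-fold lower (1.35 to 3.61). It shares 456 exon bases with PSMB8-AS1 on the opposite strand, which had 0 counts in both libraries. Both subunits were lower by more than counting error, and TAP1 was close to the 1 CPM limit. TAPBP, or tapasin, which links TAP to the heavy chain, had 367 counts with cabozantinib and 312 in DMSO, a log2 ratio of 0.29 (0.07 to 0.51). B2M, the light chain shared by class I molecules, had 321 CPM with cabozantinib and 347 CPM in DMSO, a log2 ratio of -0.11 (-0.16 to -0.07). NLRC5, the transactivator of class I genes, had 6 counts with cabozantinib and 0 in DMSO, and was below 1 CPM in both. It was at least 1.22-fold higher by its exact interval, and 2.08-fold higher when DMSO is set at the floor of 3 counts, a ratio that leaves out the counting error of the 6. The list's median depends on how it is summarised, since B2M held 7941 of the 8921 counts of the list with cabozantinib and 8932 of 10480 in DMSO, and the ratio of summed CPM was -0.18 in log2. By that measure the list was not the lowest, since effectors and sensors were at -0.23.

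Most called members were at low levels. Per kilobase of exon, IFITM1 had the highest level of the measured members, at 433 CPM per kilobase with cabozantinib and 591 in DMSO, followed by B2M at 325 with cabozantinib and 351 in DMSO and BST2 at 94.4 with cabozantinib and 109 in DMSO. Among all measured genes IFITM1 stood at percentile 99 with cabozantinib and 99.3 in DMSO, and B2M at 98.7 with cabozantinib and 98.8 in DMSO. HLA-E had 2.56 CPM per kilobase with cabozantinib and 7.62 in DMSO, at percentile 21.9 with cabozantinib and 41.8 in DMSO. Its place among the 28 members by this level was 20 with cabozantinib and 16 in DMSO. IFIT3 had 1.31 CPM per kilobase with cabozantinib and 0.476 in DMSO, and OAS3 had 1.31 with cabozantinib and 0.638 in DMSO. Both stood at percentile 13.8 of measured genes with cabozantinib, so their level stayed low where it was higher. TAP1, at 0.356 CPM per kilobase with cabozantinib and 0.776 in DMSO, was the lowest of the 28 with cabozantinib.

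**Figure D3:**
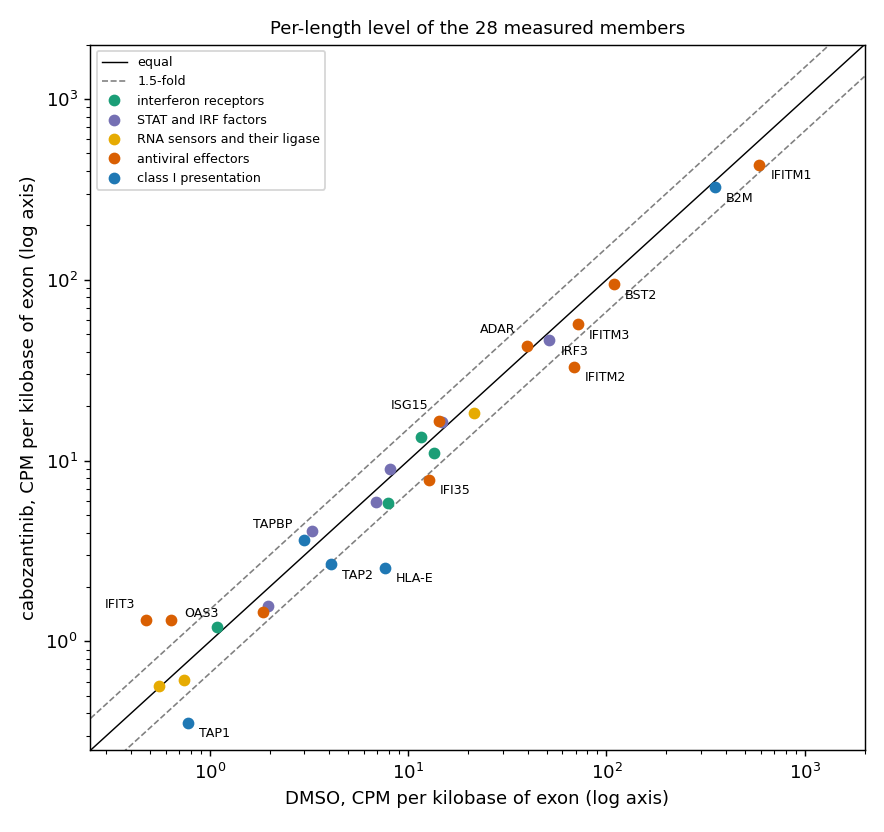
Level of the 28 measured members per kilobase of exon in the cabozantinib library (vertical) against the DMSO library (horizontal), both on log axes, coloured by role, with equality and 1.5-fold as lines. Most points lie between the dashed lines over the whole range of levels, and HLA-E, IFITM2, TAP1, IFI35 and TAP2 lie below them, the last 2 close to the line, while IFIT3 and OAS3 lie above them at the low end.

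The other genes of the pathway were counted in 7 lists with 108 genes. All 10 interferon genes of the ligand list, among them IFNB1, IFNG and IFNL1, had 0 counts in both libraries. Of the 9 measured receptor kinases and negative regulators 0 were higher and 2 (22.2%) lower, against 8.15% and 12.3% of all measured genes. SOCS1, the feedback inhibitor of interferon receptor kinases, had 16 counts with cabozantinib and 113 in DMSO, 6.61-fold lower (4.0 to 12.3), and its relative SOCS3 was 1.86-fold lower (1.71 to 2.03). The receptor kinases JAK1 and TYK2 had log2 ratios of -0.34 (-0.43 to -0.26) and -0.09 (-0.15 to -0.02), inside 1.5-fold. The kinase JAK2 had 2001 counts with cabozantinib and 2076 in DMSO, within counting error. Of 10 measured sensing adaptors and kinases 1 (10%) was higher, the DNA sensor IFI16 at 1.71-fold (1.33 to 2.22), and 0 were lower. MAVS, the adaptor of both RNA sensors, had a log2 ratio of 0.41 (0.34 to 0.49).

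Further interferon-stimulated genes lay on both sides of no change, with a median log2 ratio of 0.11. Of 26 measured, 3 (11.5%) were higher and 3 (11.5%) lower. Among all measured genes the shares were close to these, at 8.15% higher and 12.3% lower. SAMD9, a restriction factor of poxviruses, was 2.26-fold higher (1.77 to 2.92), ZNFX1 was 1.75-fold higher and the antibody receptor and ubiquitin ligase TRIM21 1.71-fold higher. APOL6 was 2.31-fold lower (1.89 to 2.86), the scramblase PLSCR1 1.82-fold lower and the transcription factor BATF2 1.51-fold lower. IFI44L, HERC5, GBP1, GBP3 and CXCL9 had 0 counts in both libraries. As in the effector list, called genes lay in both directions. The shares of these further genes were near those of all measured genes, which does not set them apart.

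Among 11 measured genes of the immunoproteasome and peptide loading, 1 (9.09%) was higher and 0 lower, against 8.15% and 12.3% of all measured genes. ERAP2, an aminopeptidase that trims peptides for class I, was 1.52-fold higher (1.10 to 2.11) on 98 counts with cabozantinib and 67 in DMSO. The immunoproteasome subunit PSMB8 had 5 counts with cabozantinib and 3 in DMSO, and PSMB9 had 1 with cabozantinib and 0 in DMSO. Another subunit, PSMB10, was well detected, with 579 counts with cabozantinib and 558 in DMSO. Its log2 ratio of 0.11 (-0.06 to 0.28) was within counting error. On hg19, 189 bases lie between PSMB9 and TAP1. RFX5 and RFXAP, which bind class I and class II promoters, had log2 ratios of -0.46 (-0.57 to -0.35) and -0.45 (-0.64 to -0.26). RFXANK, of the same list, had 2081 counts with cabozantinib and 2175 in DMSO. Its log2 ratio of -0.01 (-0.09 to 0.08) was within counting error. The 10 class II genes were all below 1 CPM, with CIITA, HLA-DRA, HLA-DRB1, HLA-DQA1, HLA-DQB1 and HLA-DMB at 0 counts in both libraries.

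Ligands of natural killer receptors are read together with HLA-E by those cells. Of 4 measured ligand genes 1 (25%) was higher and 2 (50%) lower, against 8.15% and 12.3% of all measured genes. ULBP1, a ligand of the activating receptor NKG2D, had 240 counts with cabozantinib and 606 in DMSO, 2.42-fold lower (2.09 to 2.83). ULBP2, a ligand of the same receptor, had 19 counts with cabozantinib and 89 in DMSO, 4.41-fold lower (2.72 to 7.83). MICA, also an NKG2D ligand, had 47 counts with cabozantinib and 23 in DMSO, 2.10-fold higher (1.27 to 3.67). MICB, of the same list, had 58 counts with cabozantinib and 80 in DMSO, within counting error. RNA of an inhibitory ligand, HLA-E, and of the activating ligands ULBP1 and ULBP2 was lower in the same library, and that of MICA higher.

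**Figure D4:**
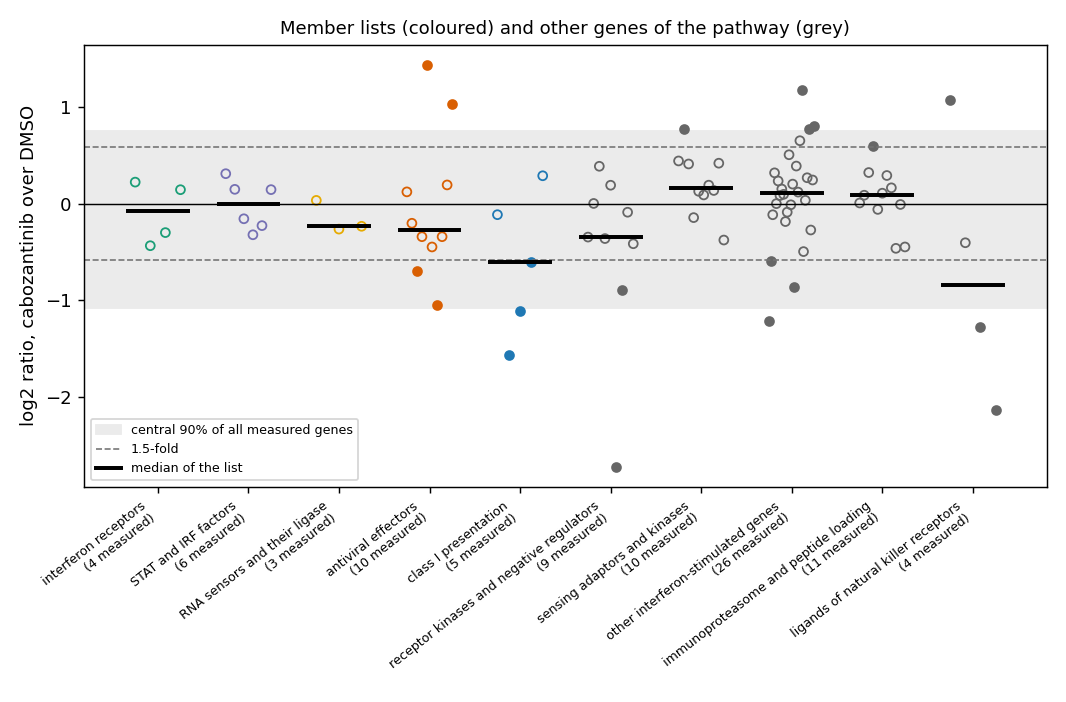
Log2 ratio of cabozantinib over DMSO for each measured gene of the member lists (coloured) and of the other pathway lists (grey), with called genes filled, list medians as black bars and the central 90% of all measured genes as the grey band. Class I presentation has the lowest median of the member lists at -0.61 (by summed CPM it is at -0.18, above effectors and sensors at -0.23), while receptors and factors lie close to 0.

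In the authors' deposited table, 35 of the 41 members were listed, and the other 6, IFI44, MX1, OAS1, OAS2, OASL and HLA-C, had 0 counts in both libraries. Of higher members 1 in the authors' deposited table, IFIT3 at 0.977, reached a posterior probability of differential expression of 0.95, against 1.39% of all genes listed there. Of lower members 2 reached it in the authors' deposited table, HLA-E at 1 and IFITM2 at 0.995, against 3.27% of all genes. OAS3 had 0.913, TAP1 0.429, IFI35 0.309 and TAP2 0.16 in the authors' deposited table. The shrunken fold in the authors' deposited table, which carries no label of direction and by the deposited counts is cabozantinib over DMSO, was 2.70 for IFIT3 and 0.335 for HLA-E.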

How the data were processed

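RNA of K562 cells was sequenced in 1 library per group. The authors deposited whole-number counts per Entrez gene, aligned with Rsubread to hg19 per the file headers. Both hg19 and GRCh37 appear in the submitters' processing notes. The strand setting and the handling of multiply aligned reads were not given in the sources used here. The authors' deposited table also holds a fold ratio and a posterior probability, a score between 0 and 1, per gene. Its column names match EBSeq output, but no tool is named. It has 4 further columns of per-library values without a sample label, which were left out.

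From the deposited counts, CPM (counts for each 1000000 counts) and log2 ratios of cabozantinib over DMSO were computed on library sizes scaled with TMM in edgeR 4.0.16 (R 4.3.3), with a pseudocount of 0.5. The TMM factors were 0.971 for cabozantinib and 1.03 for DMSO. Exact Clopper-Pearson 95% intervals of the ratio of the 2 counts take in counting error and nothing else. A gene was measured if either library had 1 CPM or more of it. It was then called higher or lower at a difference of 1.5-fold or more (0.58 in log2) whose interval excluded no change. Single libraries allow no test between the conditions, and no p-value is given. The scripts were tested on simulated counts.

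Of the 41 members, 35 were matched by symbol in the authors' deposited table and the other 6 by a RefSeq table of gene IDs. The members and the gene lists were chosen with earlier results of these data known. Every member was to be reported whatever its value, and from each other list the called genes were named. Uncalled genes of those lists are given as examples and were chosen after their values were seen. One list of cell type markers is not reported here. A promoter was the 250 bases before each start site of a RefSeq table on GRCh38.p14, which was used for sequence only. The promoters printed are those of the called members with the largest differences that have an entry, and that of 1 paralog that was not called. Other settings tried were scaling by total counts, by the upper quartile and by size factors of DESeq2 1.42.0, the filter, the pseudocount, the size, the interval, a trend with gene length, summed CPM and the authors' deposited fold. Python 3.11.15, numpy 2.4.6, pandas 2.3.3, scipy 1.17.1, statsmodels 0.14.6 and matplotlib 3.10.9 were used.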

Additional observations from a re-analysis of the deposited data

How the results depend on the processing

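No paired analysis was possible because each group holds 1 library. The 7 called members kept their direction in every alternative that held them. That was largely fixed in advance, since the filter, size and interval leave the ratio as it is. The other scalings and the authors' deposited fold use the same counts and shift it little. In number, 2 higher and 5 lower members were found under each of the other scalings, the pseudocount of 5, the length trend and the 99% interval. The number higher was 1 with a filter of 5 CPM, which leaves out IFIT3, and 1 under the authors' deposited fold with a posterior of at least 0.95. The number lower was 3 at a size of 2-fold, where TAP2 and IFI35 were not called, 8 at the smaller size tried (log2 of 0.32), where IFNAR2, IFITM1 and IFITM3 were added, 2 under the authors' deposited fold and 4 with a filter of 5 CPM, which leaves out TAP1. With no filter NLRC5 and ISG20 were added. The class I median was -0.36 with a filter of 5 CPM, where TAP1 is left out, and -0.18 as the ratio of summed CPM, where effectors and sensors were lower, at -0.23. The median of receptors and factors, close to 0, was 0.01 as that ratio. Log2 ratios ranged over the alternatives from -1.65 to -1.54 for HLA-E, from -1.13 to -1.02 for IFITM2, from 1.33 to 1.45 for IFIT3 and from 0.95 to 1.03 for OAS3. Scaling by total counts shifted log2 ratios by -0.08. The difference of TAP1 rests on few counts, and genes with 0 counts could still have up to 3.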
